A study of Mus musculus with 6 samples.

Results

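Replication timing was examined at 8 genes that regulate haematopoietic stem and progenitor cells, Meis1, Gata2, Hlf, Mecom, Erg, Tal1, Lmo2 and Cd34, out of 18063 autosomal protein-coding genes with a timing value. The genes were taken as a list by name, and each was given the score of the sequencing window nearest its midpoint in the mouse genome build mm10. All 8 had a value. The samples were mouse myeloid lines made with HoxB8 under GM-CSF selection. Per the labels, 3 samples were WT and 3 were Recql4-/- Klhdc3-/-, both genotypes being grown in the same medium and collected while proliferating, with a division time of 15 to 18 hours and over 25% of cells in S phase. The sources used here did not say if samples sharing a genotype were separate clones or cultures, nor did they give the age or strain of the donor animals. Recql4 encodes a RecQ helicase with a role in replication initiation, and Klhdc3 encodes a substrate receptor of a CUL2 ubiquitin ligase. HoxB8 was present in the WT lines as well, so no group stood for cells without it.

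Growing cells carry more copies of DNA that replicates early in S phase than of DNA that replicates late, so sequencing depth along the genome follows the order of replication. Active genes tend to lie in early replicating DNA, and the domain around a developmental gene can replicate at a different time in another cell type. The 8 genes encode transcription factors that act together in blood stem cells, their partners, and a surface marker. Gata2, Tal1 and Erg encode a zinc finger, a basic helix-loop-helix and an ETS transcription factor, and Lmo2 encodes a LIM protein that bridges GATA and TAL1 proteins. Hlf encodes a PAR bZIP factor, Mecom a zinc finger factor with a PR domain, Meis1 a homeobox factor that acts with HOX proteins, and Cd34 a sialomucin on the surface of progenitor cells.

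The 6 value columns had no names, so they are called profiles A to F in column order. Their number equals that of the samples, but nothing ties a column to a sample, and no profile could be given a genotype. No comparison of genotypes was made, which profiles replicate each other is unknown, and all spreads below are ranges over the 6 profiles. The authors' timing score is in SD units around an autosomal mean of 0 in each profile, and a higher score stands for earlier replication. Profiles D and E stood apart over the first part of chromosome 3, which holds Mecom. There, up to position 43325641, their mean scores were -1.25 and -2.16, against -0.48, -0.49, -0.52 and -0.50 in A, B, C and F. Chromosomes 4 and 6, which hold Tal1 and Gata2, were also set aside for broad shifts in a rescaling described below. The tables hold DNA depth and no expression, so the cell type given in the labels could not be checked against its marker genes, nor could it be seen which of the 8 genes were expressed.

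The genes fell into early, middle and late positions. Gata2 and Lmo2 were the earliest of the 8 in all 6 profiles, at or above percentile 80.3 of all genes in each. Hlf, Tal1 and Cd34 scored above 0 in all 6. Erg ran from -0.63 to 0.32, with its median at percentile 15.4 of all genes. The smoothed scores of Mecom and Meis1 were below 0 in all 6, which for Meis1 did not hold in 1 profile of the raw levels. Thus 5 of the 8 genes were above 0 in every profile, where 76.4% of all genes were, and 2 were below 0 in every profile, where 15.3% of all genes were. Erg, the remaining gene, had scores on both sides of 0, as 8.26% of all genes did. Above 0.5 in every profile were 2 genes, Gata2 and Lmo2, and 58.1% of all genes. The median over the 8 genes was 0.45 (0.24 to 0.54 over the profiles), against 0.82 (0.70 to 0.87) for all genes. With 8 genes, these shares describe the list and set nothing apart.

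**Figure D1:**
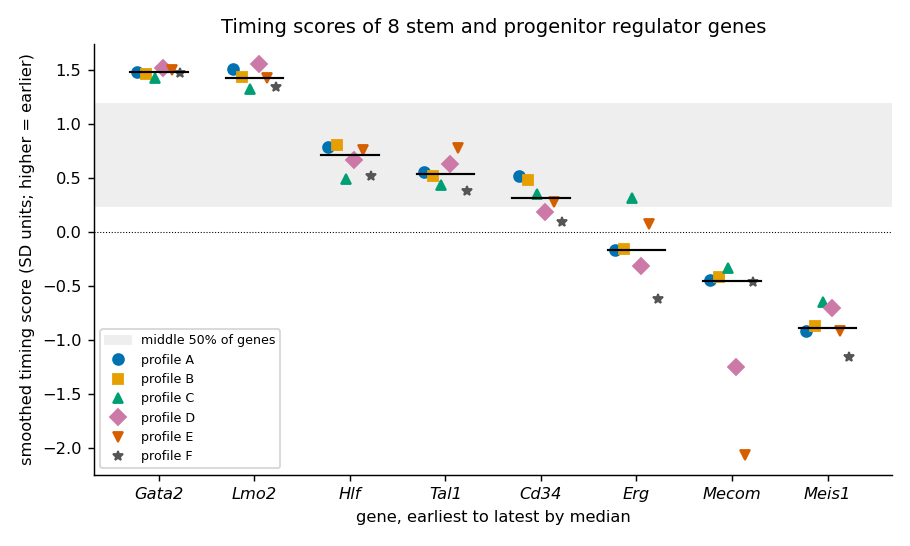
Timing score (vertical axis, SD units, higher is earlier) of each gene in profiles A to F (symbols), ordered by the median (black bar), with the middle 50% of all gene medians in grey. Gata2 and Lmo2 lie above the grey band in each profile, Erg straddles 0, and the Mecom points of D and E lie far below the other 4.

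Sequences just before the transcription start are shown for Gata2, with the highest median score, for Meis1, with the lowest, and for both starts of Mecom, because these starts sat at different times. They are the 250 bases before the start on the gene's strand, from RefSeq on GRCm38.p6, the assembly named mm10, and CG dinucleotides are in capitals. The 7 genes other than Lmo2 were matched in the sequence table, with 12 starts.
Gata2, chr6:88193641-88193890, plus strand: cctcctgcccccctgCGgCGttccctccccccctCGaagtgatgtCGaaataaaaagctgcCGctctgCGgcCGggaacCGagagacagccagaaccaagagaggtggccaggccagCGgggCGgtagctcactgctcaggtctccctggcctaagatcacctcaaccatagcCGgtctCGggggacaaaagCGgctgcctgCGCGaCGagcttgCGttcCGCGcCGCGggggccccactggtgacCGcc
Meis1, chr11:19018970-19019219, minus strand: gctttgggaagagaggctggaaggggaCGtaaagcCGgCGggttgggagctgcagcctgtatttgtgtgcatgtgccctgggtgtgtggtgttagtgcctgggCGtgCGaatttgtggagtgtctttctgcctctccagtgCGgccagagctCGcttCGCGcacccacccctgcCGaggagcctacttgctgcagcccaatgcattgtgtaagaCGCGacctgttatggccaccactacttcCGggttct
Mecom, longer transcript, chr3:30509760-30510009, minus strand: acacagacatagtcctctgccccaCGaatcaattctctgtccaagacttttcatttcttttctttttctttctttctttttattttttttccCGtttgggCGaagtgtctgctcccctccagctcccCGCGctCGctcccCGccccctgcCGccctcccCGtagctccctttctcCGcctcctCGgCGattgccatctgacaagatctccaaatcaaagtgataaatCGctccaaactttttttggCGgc
Mecom, shorter transcript, chr3:30013205-30013454, minus strand: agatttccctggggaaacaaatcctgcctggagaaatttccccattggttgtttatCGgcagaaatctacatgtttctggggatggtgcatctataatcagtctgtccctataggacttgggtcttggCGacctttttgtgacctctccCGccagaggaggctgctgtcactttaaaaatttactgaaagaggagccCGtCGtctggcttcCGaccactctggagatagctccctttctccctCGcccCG
The motif CG reads the same on both strands and was counted 22 times at Gata2, 13 times at Meis1, and 14 and 8 times at the longer and shorter Mecom transcripts. Of 32851 promoter stretches of the same length, 14.8% held at least as many as Gata2, 31.5% as many as Meis1, and 29.4% and 43.0% as many as these Mecom starts. The median stretch had 6. Over all 12 starts of these genes the counts ran from 2 to 26, with 8 starts above 6 and 4 (1 of Tal1, the one of Cd34 and 2 of Erg) at or below it. The window that held the Gata2 start scored 1.48 (1.43 to 1.51) and that of the Meis1 start -0.86 (-1.13 to -0.69).

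Gata2, required for the production and survival of blood stem cells, lies on chromosome 6 (88193891 to 88207032). Its scores were 1.48, 1.46, 1.42, 1.52, 1.50 and 1.47 in profiles A to F. The profiles were nearly alike, with a range of 0.091, and 99.1% of all genes had a range at least as wide. Its median, 1.48, stood at percentile 91.3 of all genes (86.0 to 95.6 over the profiles). All 100 windows of the gene and the 500 kb on each side were above 0 in each profile, and their medians ran from 1.10 to 1.48. The nearest timing peak lay 95.3 kb away by median (47.6 to 138 kb), on the lower side in A, B, C and F and on the higher side in D and E. The stretch was dense in genes, with 18 other protein-coding genes within 500 kb. Rpn1, a subunit of the oligosaccharyltransferase, was the nearest on the lower side at 1.47, and Dnajb8, a heat shock protein family member, the nearest on the higher side at 1.48.

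Lmo2, on chromosome 2 (103957903 to 103981878), scored 1.51, 1.43, 1.32, 1.56, 1.43 and 1.34 in A to F. D was highest and C lowest, and the median of 1.43 stood at percentile 89.2 of all genes (80.3 to 94.4). Gata2 scored above Lmo2 in 4 of the 6 profiles and below it in A and D, with a median difference of 0.049 (-0.044 to 0.13), so the order of these genes was not settled. Lmo2 was separated from the next gene, Hlf, by 0.77 (0.63 to 0.90), with no overlap. The 10 Mb around Lmo2, leaving out the nearest 1 Mb on each side, had mean scores between -0.73 and -0.63, so that the gene exceeded its surroundings by 2.07, and by at least 2.03 in each profile. That was the widest such difference among the 8 genes, and Gata2 exceeded its surroundings by 0.90 (0.83 to 1.01). The nearest timing peak was 192 kb to the lower side (167 to 228 kb), towards Caprin1, an RNA-binding protein gene that scored 1.54. All 100 windows around Lmo2 were above 0 in each profile.

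Hlf, on chromosome 11 (90336535 to 90390917), scored 0.79, 0.80, 0.49, 0.66, 0.75 and 0.52 in A to F. C and F were the low profiles, and the median of 0.71 stood at percentile 43.9 of all genes. A timing peak lay 100.5 kb to the lower side by median (85.5 to 125 kb), in each of the 6 profiles, near Mmd, whose own score was 0.74. Scores fell from there across the gene and reached -0.072 by median 524 kb to the higher side, beyond Stxbp4 at 0.45.

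Tal1, on chromosome 4 (115056426 to 115071755), scored 0.56, 0.51, 0.44, 0.63, 0.77 and 0.38 in A to F. E was highest and F lowest, with a median of 0.54 at percentile 35.8. Hlf scored higher than Tal1 in 5 profiles and lower in E, and their ranges overlapped. Tal1 sat on a slope between a timing peak 189 kb to the lower side (149 to 199 kb) and a valley 356 kb to the higher side (344 to 424 kb), both found in each of the 6 profiles. A valley lay within 100 kb of the midpoint in all 6 profiles at none of the 8 genes, where 1.59% of all genes had one. The slope over 200 kb was -0.19 score units per 100 kb (-0.24 to -0.17), and 13.99% of all genes lay on a median slope at least as steep. Stil, a centriole assembly gene on the peak side, scored 0.62, and Pdzk1ip1 on the valley side scored 0.49.

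Cd34, on chromosome 1 (194938821 to 194961292), lay in a stretch where the medians over the profiles changed little. Its scores were 0.52, 0.48, 0.35, 0.19, 0.28 and 0.088 in A to F. The values of A, B and C were above those of D, E and F, and the median of 0.31 stood at percentile 27.1. The medians of the 85 valued windows around it differed by only 0.16, from 0.27 to 0.43, the narrowest span of medians among the 8 regions. Single profiles changed more and in different directions. From the first to the last of these windows, A went from 0.44 to 0.80, F from -0.22 to 0.13 and D from 0.32 to 0.25. The last valued window, which held the highest median, lay 386 kb to the higher side. Tal1 scored above Cd34 in all 6 profiles, but by as little as 0.030 in B, and their ranges overlapped. Of the windows around Cd34, 65.9% were above 0 in every profile, and F was the profile with the lowest mean over the region, 0.023. The adjoining genes Plxna2, a semaphorin receptor, and Cd46, a complement regulator, scored 0.33 each.

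Erg, on chromosome 16 (95359169 to 95586600), was the gene with the widest range outside Mecom. It scored -0.17, -0.16, 0.32, -0.32, 0.069 and -0.63 in A to F. C and E were above 0 and the other 4 below it, and the range of 0.94 was reached by 3.35% of all genes. The unsmoothed level over Erg and 50 kb on each side, the mean of 32 windows, was 1.94, 1.95, 2.03, 1.92, 1.97 and 1.88 in A to F, against autosomal medians of 1.96 to 1.98. These levels stood in the same order as the scores. Both come from the same sequencing depth, so the shared order is no separate support. The highest and lowest, C and F, differed by more than the standard error of either mean over windows, 0.022 and 0.020. They were picked as the extremes, neighbouring windows are not independent, and these errors may be too small. Such errors describe the scatter over windows within a profile and not the variation between profiles. Erg was also later than its surroundings, whose mean scores lay between 0.64 and 0.94, by 1.07 (0.58 to 1.27). The medians over the region fell from 0.74 at 614 kb to the lower side, in the direction of the potassium channel genes Kcnj15 and Kcnj6, to -0.16 at the gene, and they stayed near that level towards Ets2, another ETS factor gene, at -0.12.

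Mecom, on chromosome 3 (29951296 to 30509759), is a locus of 558 kb whose longer transcript, also known as Mds1-Evi1, starts 497 kb before the shorter Evi1 transcript. At the midpoint it scored -0.44, -0.42, -0.34, -1.25, -2.07 and -0.46 in A to F. A, B, C and F lay within 0.12 of each other, and D and E were far lower. Without D and E the median was -0.43. Over the 65 windows of the gene and 50 kb on each side the unsmoothed level was 1.91, 1.92, 1.94, 1.79, 1.64 and 1.90, low in the same profiles. The first part of chromosome 3 had a median level of 91.6% of the rest of the chromosome in D and 83.5% in E, against 96.1% to 96.9% in the others. A single step fitted to the difference from A, B, C and F lay at position 48563223 in D and 43325641 in E, both beyond Mecom. Relative to the mean score of the part up to the E step, Mecom stood at 0.036, 0.070, 0.18, -0.0020, 0.093 and 0.043 in A to F. The low values of D and E were thus those of the whole stretch, where a difference in copy number and one in timing cannot be told apart.

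The transcription unit of Mecom spanned a timing gradient. The window of the longer transcript's start scored 0.32, 0.30, 0.33, -0.87, -1.62 and 0.16 in A to F, and that of the shorter transcript's start scored -1.01, -0.92, -0.83, -1.68, -2.46 and -0.92. The first was earlier than the second in every profile, D and E included, by 1.12 (0.82 to 1.33). From the first to the last of the 56 windows of the gene the score fell by 1.26 (0.95 to 1.48), with the smallest falls in D and E. The slope at the midpoint was 0.23 score units per 100 kb towards higher coordinates (0.17 to 0.29). On the median profile it was 0.26, and 5.34% of all genes lay on a median slope at least as steep as that. The other 7 genes changed by at most 0.25 between their end windows in any profile. Beyond the gene, the medians went on to 0.89 at 714 kb to the higher side, past Actrt3 at 0.44, and to -1.48 at 670 kb to the lower side, past Egfem1 at -1.42. In A, B, C and F the midpoint score, which was below 0, thus stood between a start that was above 0 and one that was below it.

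**Figure D2:**
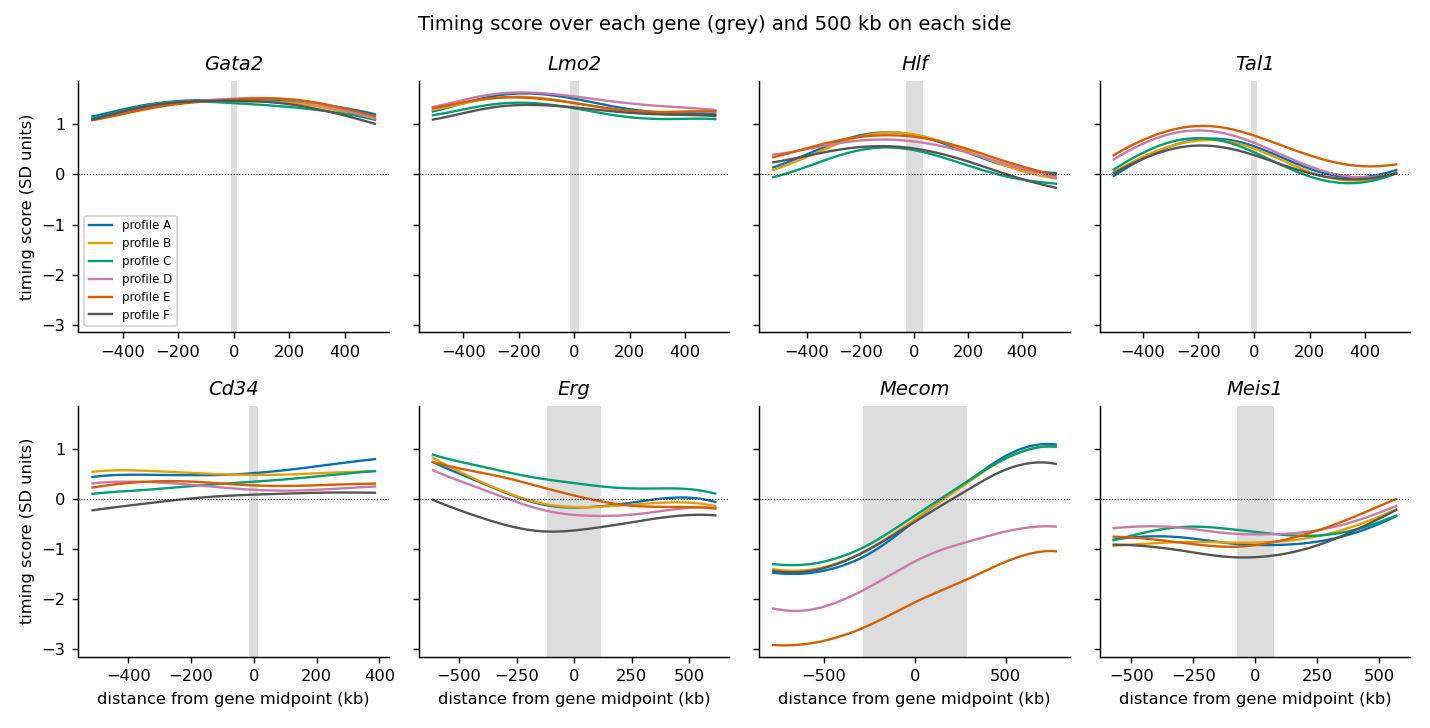
Timing score (vertical axes, SD units) against distance from the gene midpoint in kb (horizontal axes) for profiles A to F (lines), with the gene in grey and 0 dotted. Scores rise across Mecom in every profile, with D and E displaced downward, while Gata2 lies on a broad top and Meis1 on a low stretch below 0.

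Meis1, on chromosome 11 (18880428 to 19019651), was the latest gene by median. It scored -0.92, -0.87, -0.65, -0.70, -0.92 and -1.16 in A to F. C and D were the highest and F the lowest, and the median of -0.89 stood at percentile 5.98 of all genes (4.13 to 9.27). All 108 valued windows within 500 kb were below 0 in each profile. The lowest median of the region fell on the window at the gene midpoint, and the highest, -0.21, lay 568 kb to the higher side. Single profiles differed from this. In B and C the lowest score lay at the lower edge of the region, at -0.93 and -0.82, below their scores at the midpoint. The nearest timing valley was 932 kb to the lower side by median (51.1 to 1139 kb), and it lay within 100 kb of the midpoint in F alone. No other protein-coding gene lay within 500 kb. The nearest on that higher side was Spred2, an inhibitor of Ras signalling 905 kb away, which scored 0.72 (0.59 to 0.75), and on the lower side Etaa1, an activator of the ATR kinase 927 kb away, at -0.96. Meis1 was later than its surroundings by 0.72 (0.46 to 0.96), and the nearest timing peak was 1304 kb to the higher side (1238 to 1639 kb). In D and E it was not the latest of the 8 genes, since Mecom scored lower there.

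Unsmoothed copy levels set Lmo2 above Gata2 and Gata2 no longer apart from Hlf and Tal1. The level over Lmo2 and 50 kb on each side, 12 windows, was 2.21, 2.17, 2.15, 2.18, 2.20 and 2.20 in A to F, and that over Gata2, 11 windows, was 2.13, 2.08, 2.10, 2.10, 2.09 and 2.13. Lmo2 was the higher in all 6 profiles, whereas its smoothed score was the lower in 4. The SD over windows was 0.13 to 0.19 at Gata2 and 0.080 to 0.12 at Lmo2. Meis1, over 24 windows, stood at 1.83, 1.86, 1.90, 1.86, 1.79 and 1.78. The ratio of Lmo2 to Meis1 was 1.19 (1.13 to 1.23) and that of Gata2 to Meis1 was 1.15 (1.11 to 1.19). Hlf, over 15 windows, stood at 2.14, 2.12, 2.07, 2.06, 2.11 and 2.08, above Gata2 in A, B and E, and Tal1 was above Gata2 in A and B. The levels of Tal1 were between 2.05 and 2.13, and those of Cd34 between 1.97 and 2.06. Scaled to mean 0 and SD 1 over autosomal bins of 100 kb, the raw levels within 50 kb of the midpoint had medians of 0.88 at Gata2 and 0.87 at Hlf, and those of Meis1 ran from -0.76 to 0.013, so that Meis1 was below 0 in all profiles but 1.

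**Figure D3:**
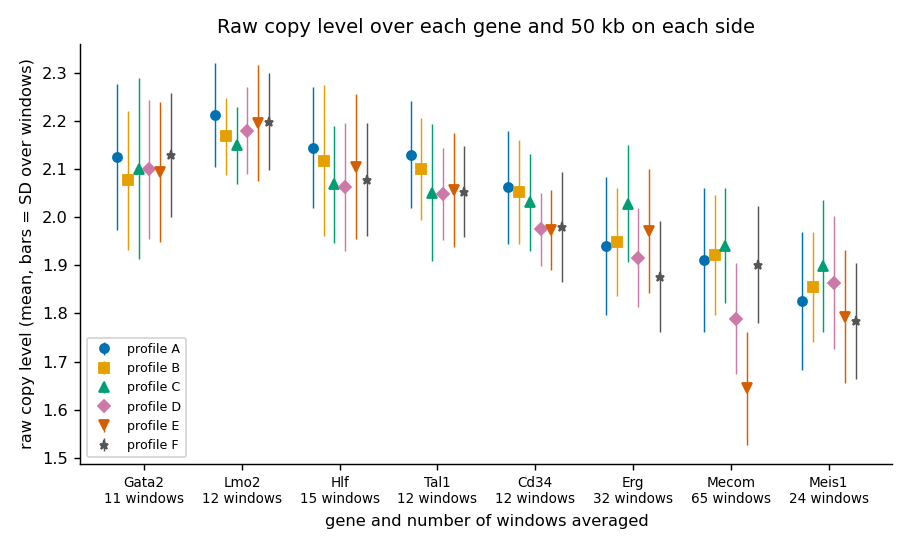
Raw copy level (vertical axis, mean over the windows of the gene and 50 kb on each side) in profiles A to F, with bars for the SD over windows and the number of windows under each gene name. Median levels descend from Lmo2 to Meis1, Mecom lies below Meis1 in D and E, and the bars of neighbouring genes overlap.

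The genes with a median above 0 and those with a median below it also differed in length. Meis1, Mecom and Erg, the 3 lowest by median, were the 3 longer than 100 kb (139, 558 and 227 kb), and the other 5 measured 13.1 to 54.4 kb. Over the genome, 2077 genes longer than 100 kb had a median score of 0.46, against 0.85 for 15986 shorter ones, and 62.8% against 78.2% were above 0 in every profile. Across the 8 genes Spearman's rho between length and score was -0.74, a description with 8 points, and across all 18063 genes it was 0.012. Gene density moved with timing too. Meis1 belonged to the 112 genes with no other protein-coding gene within 500 kb, whose median score was -1.18, and genes with 10 or more others had a median of 0.96. Mecom had 11 others, as many as Lmo2, but over a longer stretch, as the gene itself measured 558 kb. It scored 1.90 lower than Lmo2 (1.66 to 3.50), with the widest difference in E, which was low over the first part of chromosome 3. The part of length and gene density in the order of the 8 genes was not tested.

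**Figure D4:**
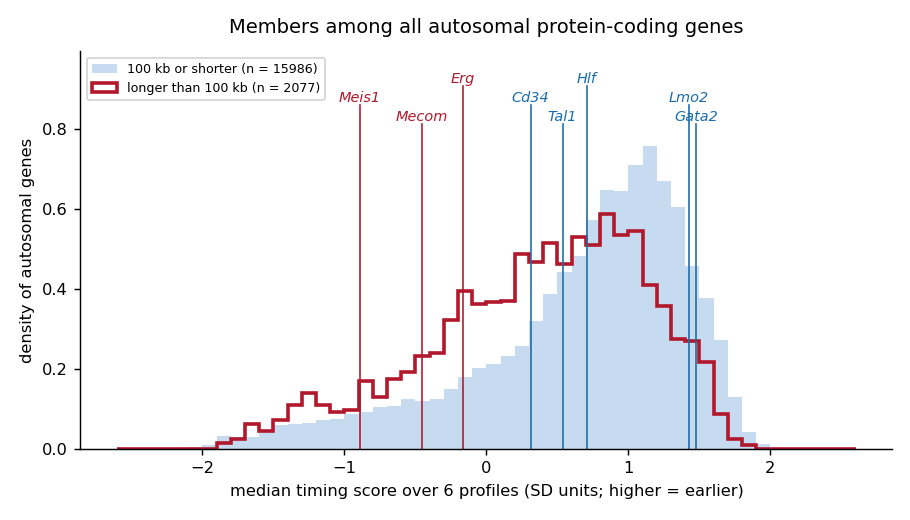
Distribution of the median timing score over 6 profiles (horizontal axis, SD units) of autosomal protein-coding genes of 100 kb or shorter (filled) and longer (outline), as density, with the 8 genes as vertical lines coloured by the same length classes. Meis1, Mecom and Erg lie on the late side of 0 and Gata2 and Lmo2 lie farthest to the early side of the 8.

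Most of the paralogues compared differed in score from the member of their family in each profile with a value. These differences were not set against pairs of unrelated genes, so they describe the pairs only. Of 15 paralogues, 13 had a value in all 6 profiles on an autosome. The median of their gene medians was 0.64, against 0.42 for the 8 genes and 0.82 for all genes. The 0.45 given above for the 8 genes was instead the median of the 6 profile medians. Of the 13, 9 were above 0 in every profile and 0 below it in every profile, where 76.4% and 15.3% of all genes were. Gata1 lies on the X chromosome and was not compared with autosomal genes. Gata2 exceeded Gata3, a T-cell factor gene with a median of 0.046, by 1.41 (1.33 to 1.74). Lmo2 was earlier than Lmo4 at 0.64 and Lmo1 at -0.14 in all 6 profiles, and earlier than Lmo3 at -0.47 in 5. In E, Lmo3 scored 3.11 and lay above Lmo2. Lmo3 lies on chromosome 6, which a rescaling described below set aside for broad shifts. Whether this E value stands for copy number or for timing was not tested.

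Most other members were later than their paralogues. Hlf at 0.71 was later than Dbp at 0.97 and Tef at 1.66, the other PAR bZIP genes, in all 6 profiles. Tal1 was later than Lyl1 at 0.86 by 0.34 (0.17 to 0.41), and later than Tal2 at 1.06 in the 5 profiles that had a value for Tal2. Erg was later than Fli1, its nearest ETS relative, by 0.95 (0.47 to 1.18), with Fli1 at 0.77. Mecom was later than Prdm16 at 0.24 in each profile, by 0.47 to 2.28. Meis1 was later than Meis2 at -0.053 by 0.79 (0.67 to 1.05) and than Meis3 at 1.19 by 2.09 (1.86 to 2.16). Cd34 was later than Podxl2 at 0.86 in each profile, while Podxl at 0.27 was higher in 3 profiles and lower in 3.

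**Figure D5:**
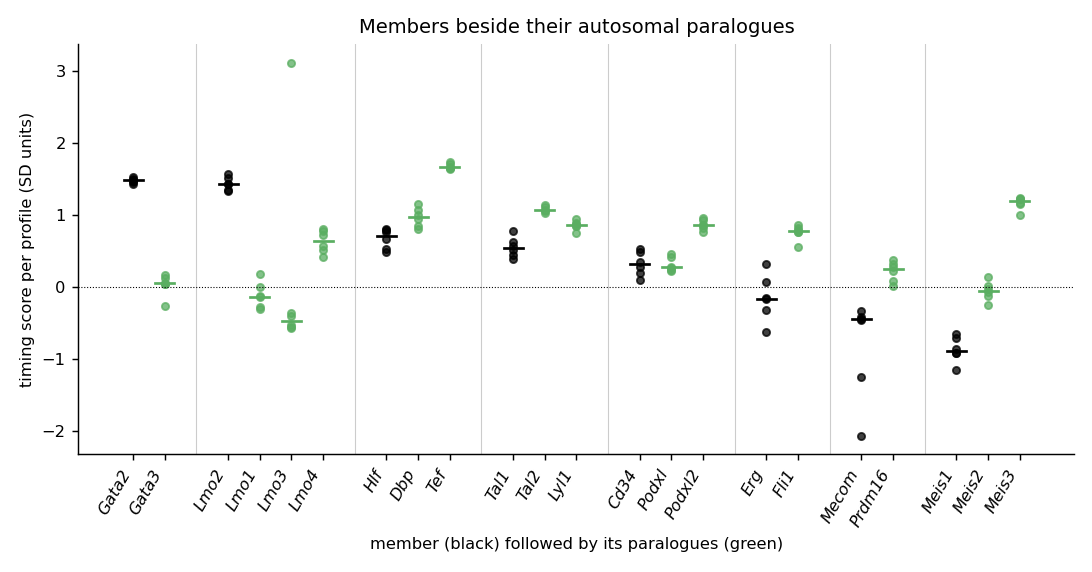
Timing score (vertical axis, SD units) of each member (black) and its autosomal paralogues (green), 1 point per profile and a bar at the median. Meis1, Erg, Mecom and Hlf lie below their relatives and Gata2 above Gata3, and the single high Lmo3 point is profile E.

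Of a wider list of 28 stem and progenitor genes, 25 had a value in all 6 profiles. The median of their gene medians was 0.77, against 0.82 for all genes. Of the 25, 22 were above 0 in every profile, 1 below it in every profile and 2 mixed. The shares of all genes were 76.4%, 15.3% and 8.26%, and the difference from these shares was not tested. Ldb1 and Hhex lie on chromosome 19, which has no value, and Mycn lies on chromosome 12, which has a value in 4 profiles. The earliest of the 25 were Gfi1, a zinc finger repressor, at 1.56 (1.32 to 1.62), Procr, the endothelial protein C receptor, at 1.53 (1.29 to 1.61), and Myb, a transcription factor of progenitors, at 1.48 (1.36 to 1.62). Among the latest were Hoxb8 at -0.17 (-0.26 to 0.19) and Hoxb4 at -0.15 (-0.26 to 0.21).

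The genes of these lists, on other chromosomes, with the most similar scores over the 6 profiles were found by the root mean square difference among 35 genes. For Gata2 it was Myb with a difference of 0.11, for Lmo2 Tcf3 with 0.13, and for Hlf Mllt3 with 0.067. For Tal1 it was Hoxa9 with 0.12, and for Erg Lmo1 with 0.19.

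Scores varied more among the profiles at some of the 8 genes than at others. The range reached 0.5 at Meis1, Erg and Mecom, 3 of 8 genes, where 8.24% of all genes reached it. Without D and E, the Mecom range was 0.12. Without F, the Meis1 range was 0.27, and without C it was 0.46, so that 2 of the 8 genes then reached 0.5, Erg at 0.63 without F and 0.69 without C. The median range of the 8 genes was 0.41, against 0.27 for all genes. After the mean of the surroundings was taken off in each profile, the ranges were 0.33 at Mecom, 0.50 at Meis1 and 0.68 at Erg, so that the spread at Mecom shrank. Without D it was 0.12 at Mecom, and without F it was 0.29 at Meis1 and 0.54 at Erg. Profile F had the lowest score of the 6 at Tal1, Cd34, Erg and Meis1, and it also had the lowest median over all genes, 0.70. No timing peak lay within 100 kb of the midpoint in all 6 profiles at any of the 8 genes, where 5.77% of all genes had one, although Gata2 and Hlf had one there in 3 profiles each.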

How the data were processed

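Genomic DNA of 6 samples was sequenced as DNBSEQ paired-end 150 bp reads, aiming for 30-fold coverage per the labels' protocols. Per the submitters' processing notes, mm10 was the genome and Picard 2.23.9 was run. TIGER, which reads timing from depth, appears in the title of the series. How reads were aligned, corrected for GC and smoothed is not stated in the labels or files. Values come as a pair of tables without headers, over 237602 windows of 10000 bp or more. One holds a normalised copy level near 2 on the autosomes, deposited by the authors without a stated unit and here called the raw level, and the other a smoothed timing score, which the authors deposited with unit SD over the autosomes. Library depth is unknown, so no counting interval is given. Both tables had 6 value columns without names, and 0 other columns of values.

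Genes came from RefSeq on GRCm38.p6 and took the score of the window nearest their midpoint within 50 kb. Percentiles and background shares ran over 18063 autosomal protein-coding genes valued in every profile. Raw levels were means over windows of the gene and 50 kb on each side. Timing peaks and valleys had a prominence of at least 0.25 score units, slopes were least-squares fits over 200 kb, and surroundings were windows 1 to 5 Mb away. The limma test of genotype needed named columns and was not run. The members and lists were chosen with earlier results of these data known. All members and paralogues were named, as were the 3 earliest and 3 latest genes of the wider list, the gene most alike and the nearest neighbours, except that 1 of the latest genes and the most alike genes of Cd34, Mecom and Meis1 are not reported here. The rule asked for the 3 earliest and latest of the paralogues too, which were named with the rest. Alternatives changed the gene position, table, scaling, profiles, limit and peak prominence. Functions were tested on simulated data. Python 3.11.15, pandas 2.3.3 and scipy 1.17.1 were used.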

Additional observations from a re-analysis of the deposited data

Results flagged for a closer look

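A profile far from the others was sought among the 6 profiles by Dixon's test, in 53 sets of values made of the scores of the 8 genes, their paralogues and the wider list, and of the raw levels of the 8 genes. Profiles are not known replicates, chance alone flags about 1 in 20 such sets, and 7 were flagged, none of them a value of the 8 genes. The test looks for a single outlying profile, so profiles that are low together, as D and E were at Mecom, can mask each other. The lack of a flag at the 8 genes therefore does not mean that their profiles were alike. Profile F was low at Meis3 (0.997, against 1.15 to 1.23 in the others), Gata3 (-0.27, against 0.035 to 0.16) and Fli1 (0.55, against 0.75 to 0.85). Profile E was high at Lmo3 (3.11, against -0.57 to -0.37), Hoxb4 (0.21, against -0.26 to -0.13) and Hoxb8 (0.19, against -0.26 to -0.14). For Lmo3, on chromosome 6, a difference in copy number was not tested. Hoxb4 and Hoxb8 are neighbours in a cluster and share one stretch of timing. At Mycn, profile F scored 1.56, against -0.0085 to 0.21 in A, B and C, and D and E had no value.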

How the results depend on the processing

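No paired analysis was possible because neither table names its columns, so replicate numbers could not be read. Leaving out D and E, or Mecom, was added after seeing the data. The chromosomes left out on rescaling, for broad shifts or missing values, were 3, 4, 6, 12, 14, 17 and 19. They were taken from earlier results of these data, and they include those of Mecom (3), Tal1 (4) and Gata2 (6). Whether the scores of Tal1 and Gata2 were shifted was not tested. The median over the 8 genes was 0.45, with a spread of 0.24 to 0.54 over the profiles. It was 0.35 to 0.54 under the alternatives tried, and 0.41 to 0.50 with 1 profile left out, each within that spread. The number of genes above 0 in every profile was 5 under each alternative except a limit of 0.5, which left 2, Gata2 and Lmo2, where 58.1% of all genes passed. Of 48 member scores under alternatives other than single profiles left out, 40 moved by less than the SD over profiles and 2 changed sign, Mecom at its transcription start (0.23) and Erg averaged with 500 kb on each side (0.060). On rescaled raw levels Gata2 fell from 1.48 to 0.88 and Meis1 rose from -0.89 to -0.43, with 1 profile above 0. Lmo2 has no start in the sequence table and kept its midpoint there. With a prominence of 0.5 the nearest peak to Cd34 lay 2472 kb away by median instead of 1748 kb, and that to Erg 2404 kb instead of 1669 kb. At this prominence the nearest peak to Hlf was 3617 kb away in D and 3647 kb in F. In C the nearest peak was then 1458 kb from Gata2 and 1056 kb from Lmo2. Among all windows instead of genes, percentiles were higher, at 22.3 for Meis1 and 97.0 for Gata2. Depth is unknown, and what it limits showed only as the scatter of raw levels.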
